A study of Mus musculus with 24 samples.

Results

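Lung RNA from mice at postnatal day 14 was set against lung RNA from mice at postnatal day 4, the ages between which most alveoli of the mouse lung form. The comparison took the 5 arrays labelled as 2 weeks of age and the 5 labelled as day 4, out of 24 arrays that also cover days 1, 7 and 42, and all 15886 genes that passed a filter on dim probes, out of 19710 genes named on the array. Both groups were whole lung from healthy C57BL/6 mice, a common inbred strain, with no treatment, allele or transgene named, and the labels give neither sex nor time of day. The labels call the samples biological replicates without stating that each was a separate animal. The p-values therefore rest on the spread between samples of one age, estimated over all 24 arrays. Total RNA was labelled with the dye Cy3 and hybridised to 1-colour Agilent expression arrays on slides of 8 arrays, and both ages were spread over all 3 slides.

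In alveolarization, ridges called secondary septa grow out of the walls of the early airspaces and divide them into alveoli. Contractile myofibroblasts at the septal tips lay down elastic fibres there, while epithelium and capillaries fold around each ridge, under control of PDGF, FGF, Hedgehog, Wnt and retinoid signals. In the same weeks cell division slows, the walls thin, and resident and circulating immune cells fill the organ.

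A level is the log2 of the processed signal of a gene's probe minus the 75th percentile of its array, so a level of 0 equals that percentile and levels of different genes cannot be ranked against each other. A difference is the day 14 mean minus the day 4 mean on this log2 scale, given with the standard error of limma's fit, and adjusted p is limma's p after Benjamini-Hochberg adjustment over all 15886 genes. Genes with adjusted p under 0.05 are said to have risen or fallen. Where a gene was well above background on a minority of one age's arrays, the printed size of its difference is not firmly measured. The labelled tissue matched its markers: Sftpc, surfactant protein C of alveolar type 2 cells, stood between 8.53 and 9.56 on all 10 arrays, and Scgb1a1, the secretory protein of airway club cells, between 6.93 and 8.17. In whole tissue, fewer cells of a type and less RNA per cell cannot be told apart.

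Some arrays stood apart. Day 4 replicates 1 and 3 belonged to the 5 dimmest arrays of the series, with 75th percentiles of 476.1 to 979.3 against 995.5 to 1652.7 for the other 19, and these 5 separated from the rest along the first principal component, which held 49.8% of the variance. Each result was therefore also computed without the 5 dim arrays, which leaves 3 day 4 arrays. Day 14 replicate 5 lay at 8.62 on the second component, which held 27.9%, while the other day 14 arrays lay between -48.52 and -40.51, the day 4 arrays between -2.06 and 44.80 and the day 7 arrays between 26.16 and 48.81. It was the day 14 array nearest to the day 4 mean for 2584 of the 2979 genes past the test, and at the median gene it lay 47.0% as far from day 4 as the mean of its 4 companions. On day 14 replicate 3, 79.7% of the spots were well above background, against 61.4% to 64.5% on the other day 14 arrays. Counts below of day 14 arrays well above background include this array. Replicates correlated at r of 0.946 to 0.994 over genes at day 4 and 0.969 to 0.995 at day 14.

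Of the 15886 genes, 2979 (18.8%) differed between the ages: 1073 (6.75%) rose to day 14 and 1906 (12%) fell. Without the dim arrays 5486 genes (34.5%) differed, 2508 (15.8%) higher and 2978 (18.7%) lower, and 2812 of the first 2979 were among them in the same direction and 0 in the other. Centring each array on its median in place of the 75th percentile moved the median difference of all genes from -0.12 to -0.46, and then 558 genes rose and 3155 fell. Leaving out 1 array at a time gave 1992 to 3345 genes, and the number that fell was 1213 without day 4 replicate 1 and 1224 without day 4 replicate 3. The change was 2-fold or more for 1713 genes, and 8-fold or more for 50 that rose and 78 that fell. With slide as a block, 2382 of the 2979 genes passed the test again. For 4191 genes (26.4%, 8.74% higher and 17.6% lower at day 14) the 5 arrays of one age did not overlap the 5 of the other, and 2273 of these had also passed the test.

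**Figure D1:**
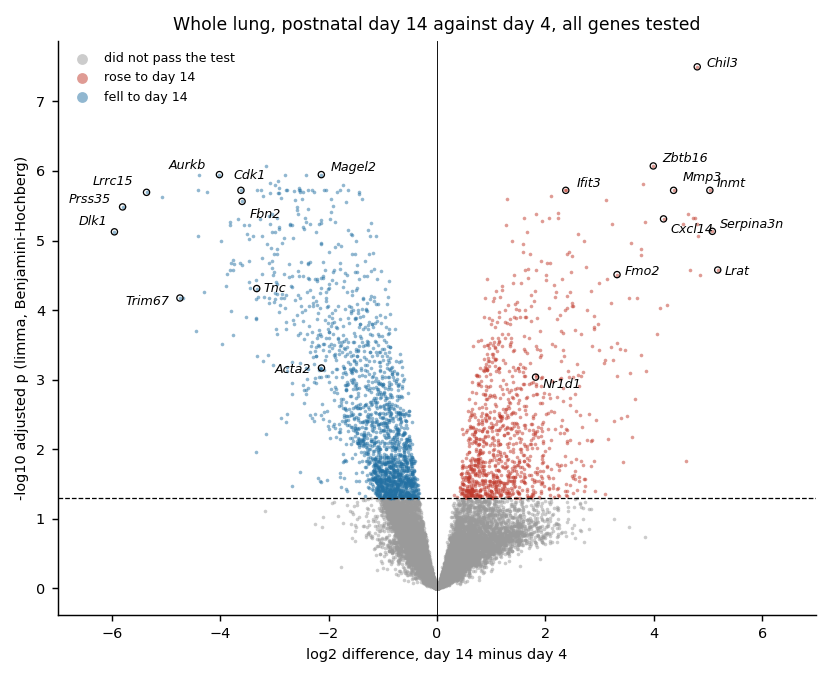
Log2 difference between day 14 and day 4 (x axis) against -log10 of the adjusted p (y axis) for the 15886 genes tested, with the 1073 genes that rose and the 1906 that fell in colour and leading genes named. The dashed line marks an adjusted p of 0.05, and the falls reach further from 0 than the rises.

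The largest rises included a methyltransferase, an enzyme of retinol storage, secreted defence proteins and a matrix protease. Inmt, an indolethylamine N-methyltransferase of lung fibroblasts, stood at 3.33, 1.87, 2.70, 1.63 and 1.76 on the 5 day 4 arrays in replicate order and at 7.93, 8.0, 7.81, 7.79 and 4.93 on the day 14 arrays, a difference of 5.03 ± 0.53 (32.8-fold, adjusted p 1.9e-06). Lrat, which esterifies retinol for storage, went from -6.97, -4.54, -6.46, -4.12 and -4.26 to 0.71, 0.42, 0.68, 0.34 and -2.60, a difference of 5.18 ± 0.72 (adjusted p 2.65e-05), or 4.22 without the dim arrays, and 3 day 4 arrays had it well above background. For both genes replicate 5 was the lowest day 14 array, still above every day 4 array. Chil3, a chitinase-like protein secreted by alveolar macrophages, had the smallest adjusted p of all genes (3.19e-08). Its levels were 1.04, 1.1, 1.30, 2.81 and 1.57 at day 4 and 6.25, 6.46, 6.03, 6.53 and 6.54 at day 14, a difference of 4.80 ± 0.34 (27.9-fold). Here day 14 replicate 5 was the highest of its group, and day 4 replicate 4 was the array closest to day 14. Chil4, a close relative whose probe could share signal with Chil3, differed by 4.73 ± 0.56.

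Other leading rises had the same shape, with 4 day 14 arrays close together and the fifth between them and day 4. Serpina3n, an acute-phase protease inhibitor, stood at -4.37, -6.25, -5.12, -4.12 and -5.61 and then at 0.62, 0.57, 0.78, 0.22 and -2.25, a difference of 5.08 ± 0.63 (adjusted p 7.38e-06), and was well above background on 2 day 4 arrays. Cxcl14, a chemokine of epithelium and stroma, stood at 0.92, -0.47, 0.58, -0.31 and -0.32 and 4.78, 4.95, 4.86, 4.82 and 1.89, a difference of 4.18 ± 0.49 (adjusted p 4.89e-06). Mmp3, the matrix protease stromelysin, stood at -3.78, -5.28, -4.26, -4.32 and -3.57 and 0.40, 0.44, 0.64, 0.47 and -1.34, a difference of 4.37 ± 0.46 (adjusted p 1.9e-06), and was above background on 3 day 4 arrays. In each of these genes the ages did not overlap. Zbtb16, a zinc-finger repressor induced by glucocorticoids, differed by 3.99 ± 0.35 (adjusted p 8.48e-07), with day 14 levels of 1.41, 2.77, 1.35, 2.70 and 0.40 against -2.12, -2.34, -2.06, -2.33 and -2.47, so that replicates 2 and 4 stood above the other 3. Ch25h, cholesterol 25-hydroxylase, was also among the 5 smallest adjusted p of the rises, at 2.36 ± 0.25 (adjusted p 1.9e-06).

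Dlk1 and Lrrc15 were among the genes with the deepest falls. Dlk1, an imprinted transmembrane regulator of fetal growth, stood at 4.65, 3.07, 4.12, 3.72 and 3.49 at day 4 and -1.36, -4.09, -2.18, -3.84 and 0.76 at day 14, a difference of -5.95 ± 0.74 (62-fold, adjusted p 7.5e-06). Lrrc15, a leucine-rich repeat protein of activated fibroblasts, stood at 2.56, 1.67, 2.49, 1.41 and 1.72 and -4.25, -4.19, -4.22, -4.33 and 0.03, a difference of -5.36 ± 0.58 (41.1-fold, adjusted p 2.03e-06). All day 14 arrays lay below all day 4 arrays in both, with replicate 5 highest. Trim67, a tripartite-motif protein best known from neurons, stood at 2.41, 1.86, 2.37, 1.93 and 1.94 and -4.22, -3.60, -3.60, -3.62 and 1.84, a difference of -4.75 ± 0.72 (adjusted p 6.7e-05), and here day 14 replicate 5 lay just below the lowest day 4 array while the other 4 were far below. Prss35, a serine protease-like protein, Shisa3 and Phactr3, a phosphatase and actin regulator, also fell (adjusted p 3.29e-06, 2.39e-06 and 1.13e-06). Shisa3 and Phactr3 were each well above background on 1 day 14 array and Prss35 on 2, so the sizes of these falls were not measured.

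**Figure D2:**
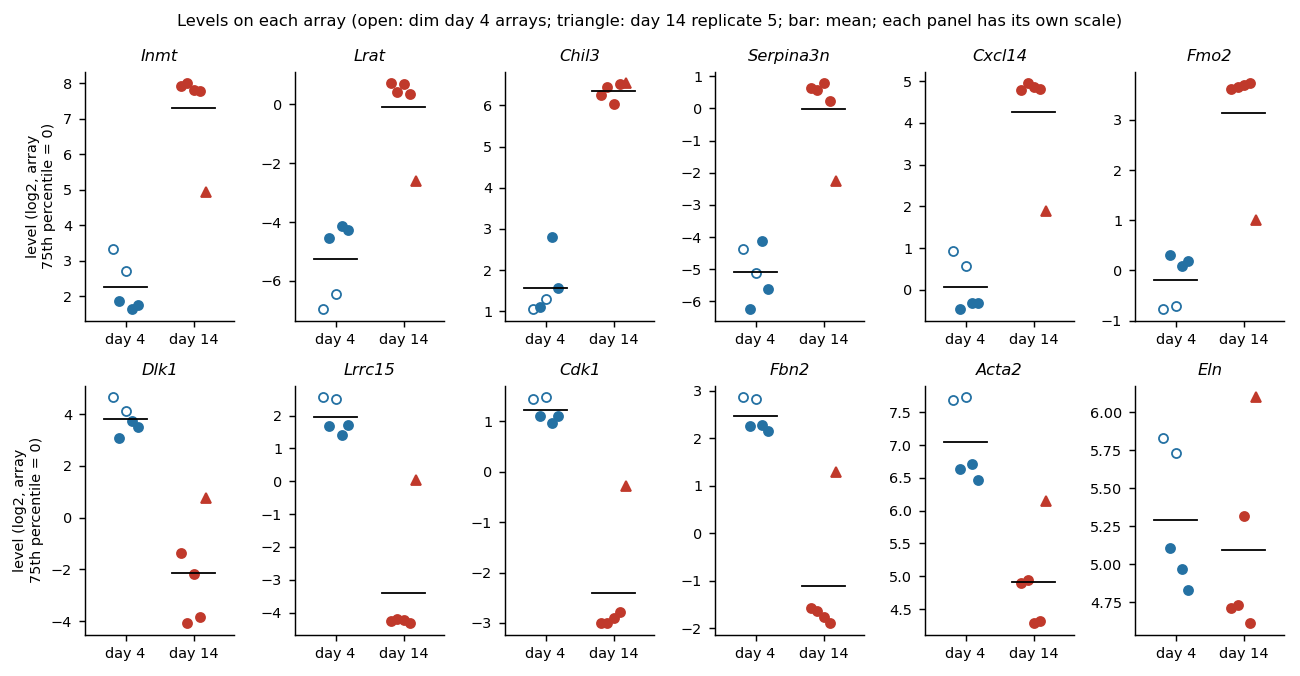
Levels (log2 processed signal minus the array's 75th percentile, y axis) of 12 leading genes on each day 4 and day 14 array, 1 point per array, with bars at the group means. Open points are the dim day 4 replicates 1 and 3, and triangles are day 14 replicate 5, which lies between the other day 14 arrays and day 4 in most panels but is the highest for Chil3.

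Several genes were well above background on all arrays of one age and on none of the other, so that only a bound on the change can be given. For such a gene the mean of the bright age is set against the lowest well-above-background signal of each dim array, or the probe's own signal where that is higher. Ms4a4d, a membrane protein of the CD20 family, was at least 18.1-fold higher at day 14 (adjusted p 8.61e-06), and the natural killer receptor genes Klra4 and Klra8 at least 10.9-fold and 7.74-fold, although the Klra genes are near-identical and their probes may share signal. Tex11, Prmt8 and Chrdl1, a secreted BMP antagonist, were at least 8.65-fold, 7.52-fold and 5.88-fold higher. In the other direction Mcpt-ps1, a mast cell protease pseudogene, was at least 4.22-fold lower, and Vwa2, Gprin1, Klf14 and Lhx2 at least 3.64-fold, 3.47-fold, 3.05-fold and 2.29-fold lower. In all, 115 genes that rose were well above background on 0 day 4 arrays and 24 that fell on 0 day 14 arrays.

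The list of genes for DNA replication and mitosis fell almost as a whole. Of its 44 tested members 40 fell and 0 rose, against 12% of all genes that fell, with a median difference of -2.36 against -0.12 over all genes. Without the dim arrays 44 of 44 fell, with a median of -2.16. The mean level of the list lay between 1.22 and 1.61 at day 4, between -1.16 and -0.97 on 4 day 14 arrays, and at 0.38 on day 14 replicate 5.

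The promoters of 5 members are shown because their genes fell together and because each holds both sequence elements that were searched for in this list. These are the CCAAT box, which binds the factor NF-Y, and TTTGAA, the core of the cell cycle homology region found in promoters of genes switched on before mitosis. The search covered both strands of the 250 bases before the transcription start in RefSeq's GRCm38.p6 promoter table, and the stretch with the elements is printed 5′ to 3′ on the gene's strand, with the elements in capitals (ATTGG and TTCAAA are the same elements on the other strand, and neighbouring elements can overlap). Ccnb2, Cdc20 and Ube2c were chosen after their values were seen. The stretches are chr10:69352913-69353135 on the minus strand for Cdk1, chr11:99024192-99024431 on the minus strand for Top2a, chr9:70421556-70421736 on the minus strand for Ccnb2, chr4:118437344-118437411 on the minus strand for Cdc20 and chr2:164769686-164769920 on the plus strand for Ube2c.
Cdk1: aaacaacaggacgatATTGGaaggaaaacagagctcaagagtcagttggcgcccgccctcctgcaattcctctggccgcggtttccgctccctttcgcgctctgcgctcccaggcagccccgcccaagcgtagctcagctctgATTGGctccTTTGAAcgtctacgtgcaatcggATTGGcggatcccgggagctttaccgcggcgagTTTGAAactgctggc
Top2a: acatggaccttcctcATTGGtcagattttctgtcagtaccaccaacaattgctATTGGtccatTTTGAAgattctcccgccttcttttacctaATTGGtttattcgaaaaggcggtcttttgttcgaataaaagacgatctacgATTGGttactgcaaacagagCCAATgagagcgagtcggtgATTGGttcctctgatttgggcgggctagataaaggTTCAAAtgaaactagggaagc
Ccnb2: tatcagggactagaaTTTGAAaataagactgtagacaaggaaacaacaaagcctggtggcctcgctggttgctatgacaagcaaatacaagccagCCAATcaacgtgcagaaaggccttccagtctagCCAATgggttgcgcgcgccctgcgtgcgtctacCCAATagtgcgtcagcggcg
Cdc20: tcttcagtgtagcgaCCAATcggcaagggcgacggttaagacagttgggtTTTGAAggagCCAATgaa
Ube2c: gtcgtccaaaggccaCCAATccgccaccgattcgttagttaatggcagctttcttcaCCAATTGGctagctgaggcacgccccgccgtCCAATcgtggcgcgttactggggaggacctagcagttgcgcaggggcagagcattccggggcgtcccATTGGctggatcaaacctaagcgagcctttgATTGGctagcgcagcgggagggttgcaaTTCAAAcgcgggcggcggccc

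Cdk1, the kinase that starts mitosis, stood at 1.44, 1.1, 1.48, 0.97 and 1.1 at day 4 and -3.01, -3.01, -2.90, -2.79 and -0.29 at day 14, a difference of -3.62 ± 0.37 (12.3-fold, adjusted p 1.9e-06). Top2a, the topoisomerase that untangles replicated DNA, stood at 0.40, 1.72, 1.09, 1.17 and 1.47 and -1.80, -1.99, -1.47, -1.70 and 0.22, a difference of -2.52 ± 0.39 (adjusted p 8.85e-05). Neither gene's ages overlapped. Ccnb2, a mitotic cyclin, differed by -2.88 ± 0.32, Cdc20, which activates the anaphase-promoting complex, by -3.01 ± 0.46, and Ube2c, a ubiquitin-conjugating enzyme of that complex, by -2.15 ± 0.28. Among the members that fell, 22 of the 31 with a promoter window (71.0%) held CCAAT, against 39.6% of the 12613 tested genes with one. Of these 31, 10 (32.3%) held TTTGAA against 13.6%, and 10 (32.3%) held both against 4.95%. Over all 35 tested members with a window the shares were 71.4%, 31.4% and 31.4%. Over all genes that fell they were 41.2%, 13.9% and 6.10%, and over all that rose 39.1%, 19.4% and 5.29%.

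Aurkb, the Aurora kinase of chromosome segregation, went from -2.34, -2.55, -2.04, -3.12 and -2.78 to -7.63, -6.38, -7.10, -6.75 and -5.04 (adjusted p 1.13e-06). It was well above background on 1 day 14 array, so the size of its fall was not measured. Mki67, the proliferation antigen Ki-67, fell less, from 2.45, 3.57, 2.68, 3.44 and 3.75 to 0.79, 0.61, 1.1, 1.31 and 2.70, a difference of -1.88 ± 0.45 (adjusted p 0.00491), and its ages overlapped, since the dim day 4 replicates 1 and 3 lay below day 14 replicate 5. Outside the list, Ticrr, needed to fire replication origins, and Cenpn, a centromere protein, were among the falls of smallest adjusted p, at -3.16 ± 0.28 (8.48e-07) and -2.42 ± 0.23 (1.13e-06). The linker histone gene H1f5 differed by -4.41 ± 0.47 and the core histone gene H2ac4 by -4.24 ± 0.46, genes made in step with DNA replication whose families hold close copies. Uhrf1 and Dnmt1, which copy DNA methylation onto new strands, differed by -3.0 ± 0.40 and -1.30 ± 0.24. Of 17 cell cycle inhibitors and D cyclins 3 fell and 0 rose, beside 12% and 6.75% of all genes. Among those that fell were Ccnd1 (-0.98 ± 0.29, and -0.64 without the dim arrays) and Ccnd2 (-0.87 ± 0.18). Without the dim arrays 4 of this list fell and 3 rose, beside 18.7% and 15.8% of all genes. The call of Ccnd1 was lost without day 4 replicate 1 or 3 or without day 14 replicate 4 (adjusted p up to 0.0704).

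Part of the imprinted growth genes fell beside the proliferation genes. Of 17 tested, 8 fell and 0 rose, with a median of -0.98 and all 17 below 0, and without the dim arrays 12 fell. Igf2, the fetal insulin-like growth factor, stood at -3.52, -4.18, -3.54, -3.53 and -3.86 and -5.05, -5.36, -5.76, -4.81 and -5.61, a difference of -1.59 ± 0.29 (adjusted p 0.000453), and was above background on 2 day 14 arrays. Mest, a hydrolase-like protein made from the paternal allele, differed by -2.93 ± 0.29 and Nnat, neuronatin, by -2.45 ± 0.42. Magel2 differed by -2.14 ± 0.20 (adjusted p 1.13e-06), and its day 14 replicate 5 lay with the other day 14 arrays (-4.31, -4.40, -4.91, -4.36 and -4.24). Among 16 fetal RNA-binding and chromatin proteins 8 fell and 0 rose: Igf2bp3, which binds Igf2 mRNA, differed by -1.71 ± 0.30, whereas Igf2bp1 did not pass the test (-0.66 ± 0.27, adjusted p 0.0882).

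Elastic fibre genes divided. Of the 22 tested 10 fell and 3 rose, against 12% and 6.75% of all genes. Without the dim arrays 13 fell and 5 rose, against 18.7% and 15.8%. Eln, elastin itself, stood at 5.83, 5.11, 5.73, 4.97 and 4.83 at day 4 and 4.71, 4.73, 5.32, 4.61 and 6.10 at day 14, a difference of -0.20 ± 0.34 that did not pass the test (adjusted p 0.675). Its ages overlapped, and day 14 replicate 5 was the highest of all 10 arrays. Fbn2, the fibrillin of developing microfibrils, fell from 2.86, 2.26, 2.82, 2.28 and 2.15 to -1.58, -1.64, -1.77, -1.90 and 1.28, a difference of -3.60 ± 0.40 (12.1-fold, adjusted p 2.74e-06), while Fbn1, the main adult fibrillin, differed by -0.92 ± 0.22 (adjusted p 0.00475). Fbln5, which places elastin on microfibrils, differed by -1.45 ± 0.31, and Loxl2, a cross-linking lysyl oxidase, by -2.11 ± 0.30 (adjusted p 3.23e-05). The genes that rose were Efemp1 (0.85 ± 0.16), Loxl4 (0.88 ± 0.20) and the classical lysyl oxidase Lox (0.95 ± 0.33, adjusted p 0.0445, and 0.61 without the dim arrays). Lox missed the threshold with slide as a block (adjusted p 0.0785) and without day 4 replicate 1 or 3 or without day 14 replicate 1, 2, 3 or 4 (adjusted p up to 0.132).

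Collagen and provisional matrix genes that passed the test mostly fell. Among 18 stromal collagens 8 fell and 1 rose. Col1a2, a chain of type I collagen, stood at 8.43, 7.77, 8.38, 7.68 and 7.53 and 6.79, 6.72, 6.61, 6.75 and 7.51, a difference of -1.08 ± 0.26 (adjusted p 0.00438), while its partner Col1a1 did not pass the test (-0.66 ± 0.26, adjusted p 0.0822) with all arrays and did without the dim arrays (-0.37, adjusted p 0.0383). Col8a1, a short-chain collagen, was the one that rose (2.45 ± 0.52, adjusted p 0.00182), and it was well above background on 3 day 4 arrays. Of 24 glycoproteins and proteoglycans of provisional matrix 10 fell and 2 rose. Tnc, tenascin C of growing septa, fell from -0.24, 0.09, -0.50, -0.32 and -0.28 to -4.92, -4.63, -3.35, -4.27 and -0.71, a difference of -3.33 ± 0.49 (10-fold, adjusted p 4.9e-05), with day 14 replicate 5 close to day 4 and the other 4 well below. Vcan, the proteoglycan versican, differed by -2.99 ± 0.45 and Thbs2, a thrombospondin, by -3.11 ± 0.57. Ogn, the small proteoglycan osteoglycin, and Spp1, osteopontin, rose by 3.16 ± 0.79 and 2.89 ± 0.48, the former by 2.03 without the dim arrays.

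Matrix proteases and basement membrane genes went both ways. Of 19 metalloproteases and inhibitors 4 rose and 5 fell, against 6.75% and 12% of all genes: besides Mmp3, the collagenase Mmp13 rose by 2.47 ± 0.34 and macrophage elastase Mmp12 by 1.47 ± 0.36 (well above background on 3 and 1 day 4 arrays), while Mmp14, a membrane-bound protease needed for septation, differed by -1.47 ± 0.27 (adjusted p 0.000457). Mmp14 levels were 1.96, 1.30, 2.01, 1.15 and 1.07 at day 4 and -0.19, -0.16, -0.04, -0.44 and 0.96 at day 14, without overlap. Among 25 basement membrane genes 8 fell and 3 rose (all genes 12% and 6.75%), a split that was 6 and 6 in a fit on the authors' deposited value table. The embryonic laminin chain Lama1 differed by -2.0 ± 0.29 and Frem1, of the Fraser complex that anchors epithelium, by -2.18 ± 0.36, whereas Col4a3, a type IV collagen chain made by alveolar type 1 cells, rose by 1.13 ± 0.30 (adjusted p 0.0106).

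Most of the contractile mesenchyme genes fell. Of 20 markers of myofibroblasts and smooth muscle 12 fell and 1 rose, with a median of -1.11, and without the dim arrays 13 fell and 2 rose. Acta2, alpha smooth muscle actin, stood at 7.68, 6.64, 7.73, 6.71 and 6.47 and 4.90, 4.94, 4.28, 4.32 and 6.14, a difference of -2.13 ± 0.41 (4.39-fold, adjusted p 0.000679), with no overlap between the ages. Tagln, an actin-binding protein of smooth muscle, differed by -1.14 ± 0.34 (adjusted p 0.0221), or -0.75 without the dim arrays, a call lost without day 4 replicate 1 or 3 or without day 14 replicate 3 or 4 (adjusted p up to 0.0748), and Cnn1, calponin, did not pass the test (-0.49 ± 0.34, adjusted p 0.3). Tgfbi, a matrix protein induced by TGF-beta, stood at 7.96, 7.23, 7.95, 7.01 and 7.12 and 3.64, 3.64, 3.66, 3.66 and 6.55, a difference of -3.22 ± 0.45 (9.34-fold). Pdgfra, the PDGF receptor of alveolar fibroblasts, was the member that rose, at 0.95 ± 0.20 (adjusted p 0.00175), and day 14 replicate 5 lay inside its day 4 range (3.08, 3.18, 3.32, 3.22 and 2.08 against 2.12, 1.95, 2.18, 1.89 and 1.98).

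Other fibroblast markers were mixed. Among 17 adventitial and alveolar fibroblast genes 4 rose, among them Inmt and the integrin Itga8 (1.63 ± 0.39), and 4 fell, among them Col14a1 (-1.35 ± 0.25). Of 19 genes of lipofibroblasts and lipid storage 3 rose and 1 fell. Of all genes 6.75% rose and 12% fell. Plin2, the coat protein of lipid droplets, did not pass the test (-0.48 ± 0.34, adjusted p 0.295), nor did Pparg, the nuclear receptor of fat storage (0.03 ± 0.17). Cd36, a fatty acid transporter, rose by 1.74 ± 0.44, and Tcf21, a mesenchymal transcription factor, differed by -0.77 ± 0.27 (adjusted p 0.0445), or -0.48 without the dim arrays. Tcf21 missed the threshold with slide as a block (adjusted p 0.0788) and in 8 of the 10 fits that left out 1 array, all but those without day 4 replicate 4 and without day 4 replicate 5 (adjusted p up to 0.148).

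**Figure D3:**
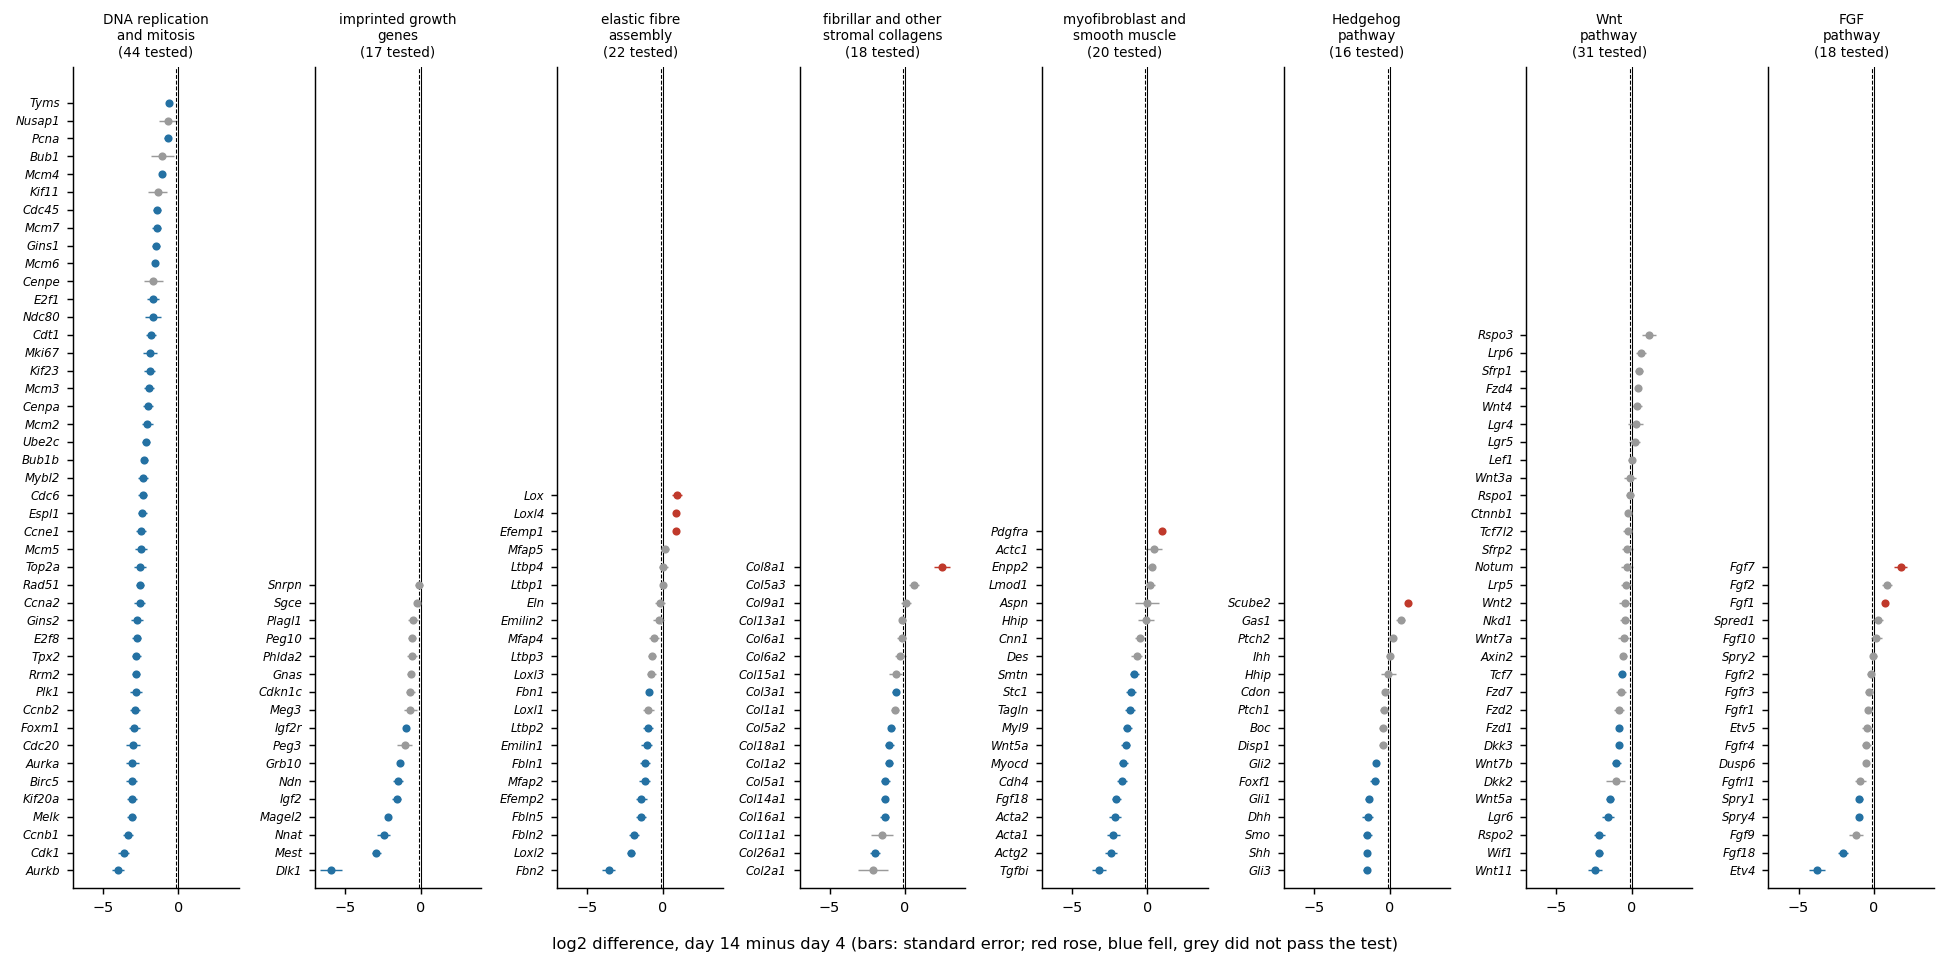
Log2 difference between day 14 and day 4 (x axis, bars are standard errors) for each tested member of 8 gene lists (rows), with members that rose or fell in colour and the others in grey. The solid line marks 0 and the dashed line the median of all genes, -0.12. Proliferation members lie on the low side, and elastic fibre and Hedgehog members on both sides.

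The FGF genes that changed were ligands, a target transcription factor and feedback inhibitors, and the PDGF genes that changed included ligands and a receptor. In the FGF list 4 of 18 members fell and 2 rose, beside 12% and 6.75% of all genes. Fgf18, a ligand of septating mesenchyme, stood at 5.05, 4.16, 4.93, 4.24 and 4.13 and 2.19, 2.20, 2.03, 2.09 and 3.75, a difference of -2.05 ± 0.31 (4.14-fold, adjusted p 7.48e-05), while Fgf7, a mesenchymal ligand for epithelium, rose by 1.77 ± 0.43 (adjusted p 0.00532), or 1.18 without the dim arrays, and Fgf10, the branching ligand, did not pass the test (0.16 ± 0.37). Etv4, a transcription factor induced by FGF receptors, stood at 3.29, 2.40, 3.12, 2.44 and 2.22 and -1.77, -1.74, -1.74, -1.73 and 1.48, a difference of -3.79 ± 0.51 (13.9-fold, adjusted p 2.07e-05). On 4 day 14 arrays Etv4 lay close together, and replicate 5 lay between them and day 4. The FGF feedback inhibitors Spry1 and Spry4 differed by -0.97 ± 0.24 and -1.0 ± 0.23. In the PDGF list 2 of 7 members rose and 2 fell, beside 6.75% and 12% of all genes. The falls were a ligand and a receptor-like gene, and the rises were Pdgfra and Pdgfd. Pdgfd, a ligand, rose by 1.31 ± 0.41 (adjusted p 0.0275), or 0.82 without the dim arrays. Pdgfa, the ligand of Pdgfra, did not pass the test (-0.17 ± 0.21, adjusted p 0.575). The call of Pdgfd was lost with slide as a block (adjusted p 0.0519) and without day 4 replicate 1 or 3 or without day 14 replicate 1, 3 or 4 (adjusted p up to 0.0908).

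The Hedgehog list had 7 of 16 members lower and 1 higher, beside 12% and 6.75% of all genes. Without the dim arrays 8 were lower and 3 higher, beside 18.7% and 15.8% of all genes. The ligand Shh stood at 0.02, -0.03, -0.23, -0.18 and -0.03 and -1.63, -1.83, -1.81, -1.98 and -0.67, a difference of -1.49 ± 0.22 (adjusted p 5.2e-05). The signal transducer Smo differed by -1.46 ± 0.32, the effectors Gli1 and Gli3 by -1.40 ± 0.24 and -1.52 ± 0.24, and the target transcription factor Foxf1 by -0.98 ± 0.30, or -0.62 without the dim arrays. All of these had day 14 arrays wholly below day 4. Ptch1, the receptor and feedback target, did not pass the test (-0.35 ± 0.27, adjusted p 0.354), and its day 14 values of -3.88, -4.29, -2.43, -4.20 and -4.03 overlapped the day 4 values of -3.21, -3.72, -2.96, -3.58 and -3.63. Scube2, which helps release Hedgehog from the cells that make it, rose by 1.20 ± 0.18 (adjusted p 5.2e-05). The call of Foxf1 was lost without day 4 replicate 1 or 3 or without day 14 replicate 3 or 4 (adjusted p up to 0.0913).

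In the Wnt list 9 of 31 members fell and 0 rose, beside 12% and 6.75% of all genes. Without the dim arrays 12 fell and 3 rose, beside 18.7% and 15.8% of all genes. Among ligands and agonists, Wnt11 differed by -2.42 ± 0.46, Wnt5a by -1.44 ± 0.28 and the R-spondin Rspo2 by -2.16 ± 0.37, and Wnt2, a ligand of lung mesenchyme, did not pass with all arrays and did without the dim ones (-0.43 ± 0.40 with them, -0.82 and adjusted p 0.0042 without). Wif1, a secreted Wnt inhibitor of the distal epithelium, stood at 1.59, 1.15, 1.32, 0.91 and 0.98 and -0.71, -1.21, -1.68, -1.62 and 0.23, a difference of -2.19 ± 0.26 (4.55-fold, adjusted p 5.71e-06), with no overlap. For Wnt11 and Wnt5a, in contrast, day 14 replicate 5 lay within the day 4 range. Of 34 TGF-beta and BMP genes 7 fell and 3 rose: the ligand Tgfb3 differed by -1.22 ± 0.29, while the activin inhibitor Fst rose by 2.18 ± 0.33 and the BMP receptor Bmpr2 by 1.33 ± 0.42, or 0.88 without the dim arrays. Of all genes 12% fell and 6.75% rose. Grem1, a BMP antagonist, went from -3.94, -2.44, -3.46, -2.61 and -2.63 to -6.0, -6.67, -6.96, -6.91 and -2.38 (adjusted p 0.00311). The 1 day 14 array on which it was well above background, replicate 5, lay above every day 4 array, and the size of the difference was not measured. With quantile normalization 8 of this list fell and 8 rose, and the call of Bmpr2 was lost without day 4 replicate 1 or 3 or without day 14 replicate 1, 2, 3 or 4 (adjusted p up to 0.0925). Of 14 Notch genes 1 rose and 0 fell, against 6.75% and 12% of all genes, and the receptors Notch1 (0.39 ± 0.20) and Notch3 (-0.17 ± 0.26) did not pass the test.

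Genes of retinoid handling went both ways. The storage enzyme Lrat rose as given above, and among oxidising enzymes Aldh1a1, which makes retinoic acid, stood at 4.89, 4.15, 4.90, 4.87 and 4.51 and 6.52, 6.42, 6.28, 6.35 and 5.33, a difference of 1.52 ± 0.24 (adjusted p 9.81e-05). Cyp26b1, which degrades retinoic acid, rose by 1.30 ± 0.40 (adjusted p 0.0249), a call lost without day 4 replicate 2 or without day 14 replicate 1, 2 or 4 (adjusted p up to 0.0767). Adh1, an alcohol dehydrogenase, stood at 7.44, 6.56, 7.33, 6.38 and 6.32 and 4.82, 5.03, 5.14, 4.86 and 5.76, a difference of -1.69 ± 0.33 (adjusted p 0.000818) without overlap between the ages. Over the whole list 4 of 20 members rose and 5 fell, and without the dim arrays 4 and 3. Of all genes 6.75% rose and 12% fell, and 15.8% and 18.7% without the dim arrays.

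Glucocorticoid-related genes also included both directions. Hsd11b1, which regenerates active glucocorticoid, stood at 3.55, 3.03, 3.43, 3.08 and 3.11 and 5.42, 5.39, 5.18, 5.23 and 3.66, a difference of 1.74 ± 0.27 (adjusted p 8.83e-05), and Hsd11b2, which inactivates it, differed by -1.51 ± 0.41 (adjusted p 0.0117) and was well above background on 4 day 14 arrays. Klf9, a transcription factor induced by glucocorticoid and thyroid hormone, rose by 2.39 ± 0.37 and Tsc22d3, a glucocorticoid-induced leucine zipper protein, by 1.28 ± 0.29. Other glucocorticoid-induced genes fell: the kinase gene Sgk1 differed by -0.76 ± 0.14 (adjusted p 0.000545) and the metallothionein gene Mt2 by -0.92 ± 0.29 (adjusted p 0.0316), or -0.61 without the dim arrays. The call of Mt2 was lost with slide as a block (adjusted p 0.0571) and without day 4 replicate 1 or 3 or without day 14 replicate 1, 3, 4 or 5 (adjusted p up to 0.107). Fkbp5, another classical target, did not pass the test (0.03 ± 0.30, adjusted p 0.957). In total 4 of 14 rose and 3 fell, beside 6.75% and 12% of all genes. With arrays centred on their median 3 of the list rose and 3 fell.

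Alveolar type 1 markers rose in part and type 2 markers mostly did not pass the test. Of 17 type 1 genes 6 rose and 0 fell, beside 6.75% and 12% of all genes. Without the dim arrays 7 rose and 0 fell, beside 15.8% and 18.7% of all genes. Hopx, a homeodomain protein of type 1 cells, stood at 4.88, 4.49, 4.75, 4.45 and 4.42 and 5.70, 5.60, 5.64, 5.34 and 4.68, a difference of 0.79 ± 0.20 (adjusted p 0.00721), and day 14 replicate 5 overlapped day 4. Clic5, a chloride channel protein, rose by 1.40 ± 0.36. Ager, the abundant type 1 receptor, did not pass the test (0.17 ± 0.39, adjusted p 0.766), but passed without the dim arrays (0.60, adjusted p 0.0175), whose day 4 values were the highest of that age. Aqp5, a type 1 water channel, passed in neither (-0.14 ± 0.38, and 0.28 without the dim arrays).

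Among 22 type 2 genes 3 rose and 0 fell, and 10 rose without the dim arrays; of all genes 6.75% rose and 12% fell, and 15.8% rose without the dim arrays. Sftpc differed by -0.29 ± 0.26 (adjusted p 0.406) and Sftpb, surfactant protein B, by -0.15 ± 0.30 (adjusted p 0.734), and neither passed without the dim arrays. Scd1, a desaturase that supplies surfactant lipid, stood at 3.41, 2.71, 3.24, 2.98 and 2.70 and 4.44, 4.26, 4.53, 3.89 and 3.92, a rise of 1.20 ± 0.20 (adjusted p 0.000224), and Lyz2, lysozyme of type 2 cells and macrophages, rose by 1.04 ± 0.27.

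Of 17 airway secretory genes 4 rose and 0 fell. Cyp2b10, a cytochrome P450, stood at 2.32, 1.06, 1.79, 1.66 and 1.36 and 4.91, 4.88, 4.60, 4.94 and 2.17, a difference of 2.66 ± 0.45 (adjusted p 0.000224), with day 14 replicate 5 inside the day 4 range. Scgb1a1 did not pass the test (0.62 ± 0.27, adjusted p 0.108), and passed without the dim arrays (0.96, adjusted p 0.000252). Scgb3a1, a secretoglobin of larger airways, spread from -0.99 to 5.59 at day 4 and from 1.90 to 6.24 at day 14, and its difference of 2.37 ± 1.17 did not pass the test (adjusted p 0.153). Of 16 cilia genes 0 rose and 0 fell, against 4 and 1 without the dim arrays. Of all genes 6.75% rose and 12% fell, and 15.8% and 18.7% without the dim arrays. Among 22 lung transcription factors 7 fell, led by Sox9 of distal tip progenitors (-1.93 ± 0.27) and Mycn (-1.54 ± 0.27), and Hopx rose. Nkx2-1, the master factor of lung epithelium, did not pass the test (-0.06 ± 0.25, adjusted p 0.881).

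General endothelial markers did not pass the test, and a few receptors and ligands of vessels rose. Pecam1, a junction protein of all endothelium, differed by 0.12 ± 0.25 (adjusted p 0.744; 0.37 and 0.0432 without the dim arrays) and the VEGF receptor Kdr by -0.35 ± 0.21 (adjusted p 0.23). Of 26 general and capillary genes 4 rose and 0 fell, beside 6.75% and 12% of all genes. Without the dim arrays 9 of the list rose and 2 fell, beside 15.8% and 18.7% of all genes. With arrays centred on their median 0 of the list were higher and 2 lower. That scaling lowered the differences of all genes, of which 558 rose and 3155 fell. The median of this list was then -0.29, above the -0.46 of all genes. Before that change it was also above, at 0.04 against -0.12, so the list did not change side relative to all genes. Tek, the angiopoietin receptor Tie2, stood at 1.11, 1.41, 1.11, 1.08 and 1.31 and 2.27, 2.19, 2.24, 2.18 and 1.30, a difference of 0.83 ± 0.20 (adjusted p 0.0054), with day 14 replicate 5 inside the day 4 range. Its ligand Angpt1, made by pericytes and fibroblasts, stood at -0.75, 1.73, -0.99, 1.90 and 2.03 and 3.14, 3.12, 2.89, 3.35 and 2.25, a difference of 2.17 ± 0.75 (adjusted p 0.0481). The dim day 4 replicates gave the lowest Angpt1 levels, without them the difference was 1.06 (adjusted p 0.0211), and it missed the threshold with slide as a block (adjusted p 0.0807) and without day 4 replicate 1 or 3 or without day 14 replicate 1, 2, 3 or 4 (adjusted p up to 0.156). Vegfa, the endothelial growth factor made by type 1 cells, rose by 0.71 ± 0.17 (adjusted p 0.00573). Tek and Vegfa missed the threshold with arrays centred on their median.

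Vasoactive mediators went both ways. Edn1, the vasoconstrictor endothelin 1, stood at -0.79, -0.31, -0.52, -0.42 and -0.60 and 0.32, 0.49, 0.19, 0.50 and 0.21, a difference of 0.87 ± 0.14 (adjusted p 0.000125) without overlap, while its receptor Ednra differed by -0.69 ± 0.21 (adjusted p 0.0263), or -0.42 without the dim arrays, a call lost without day 4 replicate 1 or 3 or without day 14 replicate 1, 3 or 4 (adjusted p up to 0.093). Hpgd, which inactivates prostaglandins, rose by 1.40 ± 0.38, or 0.91 without the dim arrays, and the inducible cyclooxygenase Ptgs2, well above background on 2 day 4 arrays, by 2.34 ± 0.57. Slc6a2, the noradrenaline transporter of lung veins, rose by 1.61 ± 0.29 (adjusted p 0.000362). Nos3, endothelial nitric oxide synthase, did not pass the test (-0.65 ± 0.27, adjusted p 0.095) with all arrays and did without the dim arrays (-0.42, adjusted p 0.0391). With arrays centred on their median 2 of the 19 vasoactive genes rose and 5 fell, against 4 and 3, and Edn1 missed the threshold. The median of this list was then -0.1 against -0.46 for all genes, and 0.23 against -0.12 before that change. Before it, 6.75% of all genes rose and 12% fell.

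**Figure D4:**
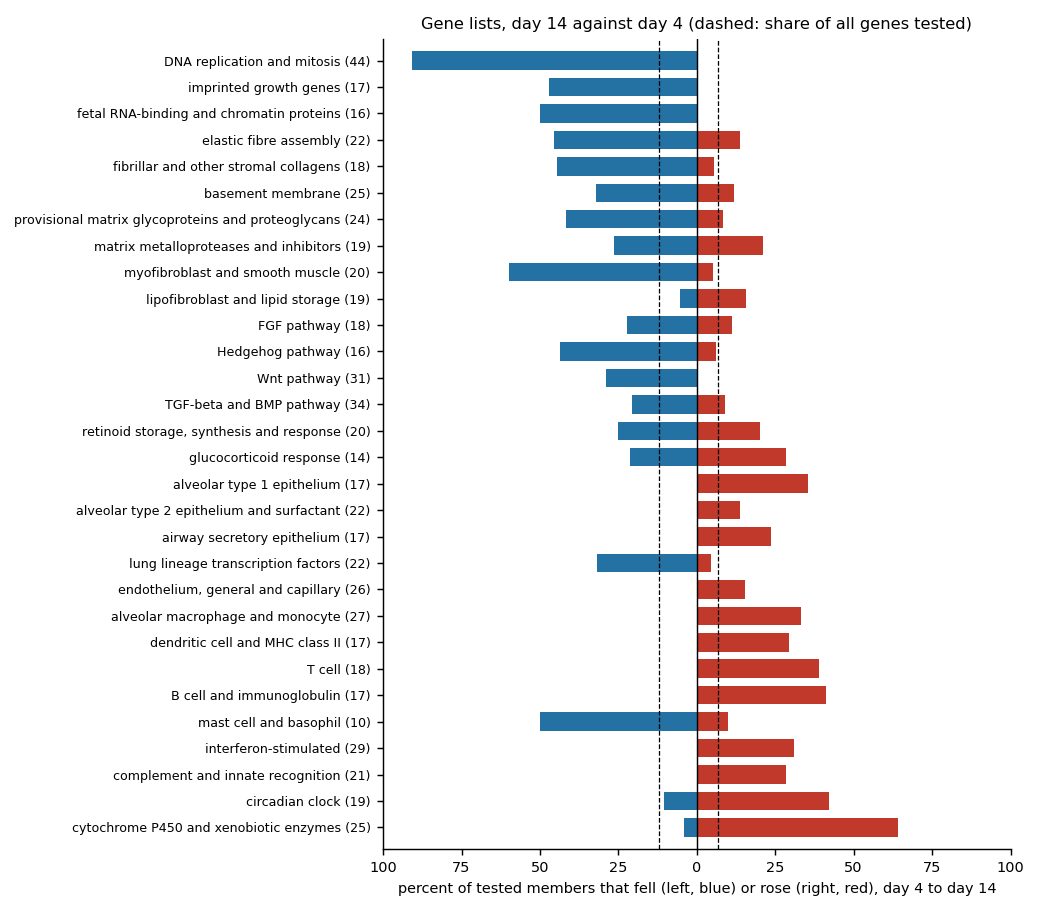
Percent of tested members of each of 30 gene lists that rose (right) or fell (left) from day 4 to day 14 (x axis), with the number of tested members beside each name. Dashed lines mark the share of all genes tested, 6.75% higher and 12% lower. Immune and xenobiotic lists extend to the right and proliferation, imprinted, matrix and contractile lists to the left.

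Immune lists held rises and, mast cells and granulocytes aside, no member that fell. Of 27 macrophage and monocyte genes 9 rose and 0 fell, against 6.75% and 12% of all genes. Without the dim arrays 15 rose, against 15.8% of all genes. Besides Chil3, Fabp1, a lipid-binding protein, stood at -1.55, -1.49, -1.72, -1.30 and -1.40 and 1.35, 1.70, 1.37, 1.68 and -0.33, a difference of 2.64 ± 0.60 (adjusted p 0.00317), and Krt79, a keratin used as an alveolar macrophage marker, rose by 1.65 ± 0.35. Siglecf, the lectin that defines alveolar macrophages, differed by 0.57 ± 0.20 (adjusted p 0.0493), a call lost with slide as a block (adjusted p 0.0882) and in 9 of the 10 fits that left out 1 array, all but those without day 14 replicate 5 (adjusted p up to 0.128). The scavenger receptor Marco did not pass the test (0.58 ± 0.38).

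Lymphocyte genes rose to different extents. Of 17 B cell genes 7 rose and 0 fell. Pax5, the factor that fixes B cell identity, was well above background on 0 day 4 arrays and on 5 day 14 arrays, at least 2.83-fold higher (adjusted p 7.95e-06). Jchain, the joining chain of secreted immunoglobulins, was at least 2.25-fold higher, and its level went on to 0.14 at day 42 from -4.23 at day 14. Ms4a1, the antigen CD20, stood at -1.58, 0.90, -0.96, 0.94 and 1.0 and 2.77, 2.59, 2.45, 2.72 and 1.18, a difference of 2.28 ± 0.65 (adjusted p 0.0166), or 1.39 without the dim arrays, on which it was lowest. The call of Ms4a1 was lost without day 4 replicate 1 or 3 (adjusted p up to 0.0642). Of 18 T cell genes 7 rose, and 17 without the dim arrays, beside 6.75% and 15.8% of all genes. Il7r, the receptor for interleukin 7, stood at -4.45, -2.96, -4.32, -2.76 and -2.50 and -0.80, -0.73, -0.77, 0.04 and -1.88, a difference of 2.57 ± 0.57 (adjusted p 0.0028), or 1.91 without the dim arrays, and the costimulator Cd28 rose by 1.62 ± 0.38, whereas Cd3e of the T cell receptor complex did not pass with all arrays and did without the dim ones (0.17 ± 0.35 with them, 0.58 and adjusted p 0.00672 without). Of 16 natural killer and cytotoxic genes 4 rose.

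Antigen presentation genes differed by how the dim arrays were treated. Of 17 dendritic cell and MHC class II genes 5 rose with all arrays and 13 without the dim ones, beside 6.75% and 15.8% of all genes. Cd209a, a lectin of monocyte-derived dendritic cells, passed in both, at -2.26, -3.21, -2.46, -2.66 and -2.85 and -0.26, -0.17, -0.06, -0.07 and -1.75, a difference of 2.23 ± 0.26 (adjusted p 4.01e-06). H2-Ab1, a class II chain, stood at 5.92, 4.71, 5.67, 4.74 and 4.36 at day 4 and 5.80, 5.75, 5.82, 5.81 and 5.35 at day 14, so that the dim day 4 replicates 1 and 3 lay among the day 14 arrays. Its difference was 0.62 ± 0.38 (adjusted p 0.236) with them and 1.1 (adjusted p 0.000217) without. Clec9a, a receptor of cross-presenting dendritic cells, went the other way: it was lowest on the dim arrays, and its difference of 2.48 ± 0.75 became 1.22 without them, past the test in both but lost without day 4 replicate 1 or 3 or without day 14 replicate 3 or 4 (adjusted p up to 0.0904). It was well above background on 3 day 4 arrays.

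Mast cell and basophil proteases fell. Mcpt4, the chymase of connective tissue mast cells, stood at 0.0, -1.20, -0.10, -0.68 and -0.77 and -4.16, -5.23, -3.70, -5.36 and -3.11, a difference of -3.77 ± 0.51 (13.6-fold, adjusted p 1.91e-05), and Cma1, a further chymase, differed by -3.0 ± 0.37 (adjusted p 7.46e-06). Mcpt8, a basophil protease, differed by -2.68 ± 0.50 and was well above background on 2 day 14 arrays. Cpa3, mast cell carboxypeptidase, differed by -1.80 ± 0.55, a call lost without day 4 replicate 4 or without day 14 replicate 1, 2 or 4 (adjusted p up to 0.0771). Of 10 tested members 5 fell, and Kit, the stem cell factor receptor, rose (0.44 ± 0.15, adjusted p 0.0436), a call lost with slide as a block (adjusted p 0.0803) and in 9 of the 10 fits that left out 1 array, all but those without day 14 replicate 5 (adjusted p up to 0.106). Of 21 granulocyte genes 3 rose and 4 fell, beside 6.75% and 12% of all genes. The falls were led by the stefin genes Stfa3 (-2.08 ± 0.47) and Stfa1 (-1.99 ± 0.47), close copies whose probes may share signal.

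Interferon-stimulated genes rose in part. Of 29 tested 9 rose and 0 fell, beside 6.75% and 12% of all genes. Without the dim arrays 17 rose, beside 15.8% of all genes. The promoters of 3 members that rose are shown because they hold GAAA repeated after any 2 bases, the core of the interferon-stimulated response element, in the 250 bases before the start. Gbp2 was chosen after its values were seen. The capitals mark the element, which lies on the other strand in all 3 and so reads as TTTC repeated. The stretches are chr19:34640770-34640828 on the plus strand for Ifit1, chr19:34583358-34583431 on the plus strand for Ifit3 and chr3:142620589-142620628 on the plus strand for Gbp2 (GRCm38.p6).
Ifit1: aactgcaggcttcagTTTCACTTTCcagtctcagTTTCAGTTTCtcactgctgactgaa
Ifit3: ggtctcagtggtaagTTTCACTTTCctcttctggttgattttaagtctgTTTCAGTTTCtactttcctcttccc
Gbp2: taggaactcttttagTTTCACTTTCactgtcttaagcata

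Ifit3, an antiviral RNA-response protein, stood at -0.21, 0.07, -0.02, 0.30 and -0.11 at day 4 and 2.72, 2.63, 2.63, 2.81 and 1.11 at day 14, a difference of 2.38 ± 0.25 (5.19-fold, adjusted p 1.9e-06). Ifit1, its relative that binds foreign RNA caps, differed by 2.33 ± 0.43 (adjusted p 0.000457) and Gbp2, a guanylate-binding protein, by 0.81 ± 0.23 (adjusted p 0.0159), with the ages apart for the first pair and overlapping for Gbp2. The call of Gbp2 was lost without day 14 replicate 3 (adjusted p 0.0523). Isg15, a ubiquitin-like effector, did not pass the test (0.23 ± 0.34, adjusted p 0.633). The element was found in 5 of the 8 members that rose and have a promoter window (62.5%), in 11 of the 24 tested members with one (45.8%) and in 3.22% of all tested genes with one.

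Some complement genes rose. C4b, a component of the classical pathway, stood at 3.01, 2.21, 2.71, 2.33 and 1.48 and 4.18, 3.72, 5.39, 4.31 and 3.29, a difference of 1.83 ± 0.32 (3.55-fold, adjusted p 0.000327), and the ages did not overlap. C3, the central component, did not pass the test (0.48 ± 0.27, adjusted p 0.207) with all arrays and did without the dim arrays (0.82, adjusted p 0.0143). Of 21 tested 6 rose and 0 fell. Among 30 chemokine and receptor genes 5 rose, led by Cxcl14. Of all genes 6.75% rose and 12% fell.

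Clock genes went both ways, repressors and output factors mostly up and the activator Arntl down. Of 19 tested 8 rose and 2 fell. The repressor Nr1d1, also called REV-ERB alpha, stood at -1.51, -2.15, -1.84, -2.37 and -2.32 and 0.15, 0.14, 0.15, -0.13 and -1.40, a difference of 1.82 ± 0.36 (3.53-fold, adjusted p 0.000919). Dbp, an output activator, rose by 1.81 ± 0.41 and Per3, a period protein, by 1.42 ± 0.23. Arntl, the activator BMAL1, stood at 0.20, 0.17, 0.08, 0.20 and 0.23 and -1.34, -1.44, -1.22, -1.55 and 0.33, a difference of -1.22 ± 0.28 (adjusted p 0.00312), and Nfil3, a repressor that opposes Dbp, differed by -1.88 ± 0.38 (adjusted p 0.00126). For Arntl and Nfil3 day 14 replicate 5 lay with the day 4 arrays. Whether the ages were sampled at the same time of day is not stated and was not tested. Ciart, a repressor that rose by 1.14 ± 0.32 (0.63 without the dim arrays) and was chosen after its values were seen, holds the E-box CACGTG, the site of BMAL1 and its partner, at the places in capitals in chr3:95882252-95882359 on the minus strand (GRCm38.p6).
Ciart: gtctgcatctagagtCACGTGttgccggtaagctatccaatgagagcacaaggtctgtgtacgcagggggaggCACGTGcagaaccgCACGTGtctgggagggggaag

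The E-box was found in 5 of the 16 tested clock genes with a promoter window and in 1 of the 7 that rose, against 8.97% of all tested genes with one. The call of Ciart was lost without day 4 replicate 1 or 3 (adjusted p up to 0.0548).

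Enzymes of drug and xenobiotic metabolism held more rises than any other of the 60 lists. Of 25 tested 16 rose and 1 fell, with a median of 1.26, and 21 rose without the dim arrays. Fmo2, the main flavin monooxygenase of lung, stood at -0.78, 0.30, -0.71, 0.08 and 0.18 and 3.61, 3.65, 3.69, 3.73 and 1.0, a difference of 3.32 ± 0.47 (9.99-fold, adjusted p 3.09e-05). Cyp1a1, induced through the aryl hydrocarbon receptor, stood at -3.29, -4.06, -2.59, -3.99 and -2.90 and 1.38, 0.08, -0.53, 0.80 and -5.45, a difference of 2.62 ± 0.80 (adjusted p 0.0247). Day 14 replicate 5 was the lowest of all 10 arrays for Cyp1a1, and the other 4 were above every day 4 array. The call of Cyp1a1 was lost without day 4 replicate 2 or without day 14 replicate 1, 2, 3 or 4 (adjusted p up to 0.0846). Sult1d1, a sulfotransferase, also rose (adjusted p 0.00336), with 0 day 4 and 4 day 14 arrays well above background.

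Among 29 antioxidant enzymes 5 rose and 4 fell (all genes 6.75% and 12%), and 3 and 4 with arrays centred on their median. Gpx3, the secreted glutathione peroxidase, stood at 1.97, 0.91, 1.70, 0.82 and 0.83 and 4.63, 4.59, 5.02, 4.30 and 2.20, a difference of 2.90 ± 0.47 (adjusted p 0.000121). Sod3, the extracellular superoxide dismutase, stood at 4.05, 2.75, 3.62, 3.0 and 2.73 and 5.32, 5.45, 5.35, 5.25 and 4.32, a difference of 1.91 ± 0.38 (adjusted p 0.000948) without overlap, whereas cytosolic Sod1 did not pass the test (-0.39 ± 0.33). Egln3, an oxygen-sensing prolyl hydroxylase, differed by -3.48 ± 0.44 (11.2-fold lower, adjusted p 9.65e-06). In its list of 21 hypoxia response and glycolysis genes 5 rose and 2 fell, beside 6.75% and 12% of all genes. Without the dim arrays 10 of that list rose and 1 fell, beside 15.8% and 18.7% of all genes. Cholesterol synthesis genes changed in 2 of 20 cases with all arrays (1 higher, 1 lower). Without the dim arrays 7 of them fell, beside 18.7% of all genes. Cytosolic ribosomal protein genes fell in 1 of 22 cases with all arrays and in 16 without the dim arrays, with medians of -0.65 and -0.34, beside 12% and 18.7% of all genes that fell. Of 18 immediate early and heat shock genes 3 rose and 1 fell, beside 6.75% and 12% of all genes. The rises included Fos (1.94 ± 0.47, adjusted p 0.00539) and Hspa1a (1.66 ± 0.55, adjusted p 0.0373), both with day 14 replicate 5 inside the day 4 range. The call of Hspa1a was lost in 8 of the 10 fits that left out 1 array, all but those without day 4 replicate 1 and without day 14 replicate 5 (adjusted p up to 0.0982). Handling of the tissue before RNA extraction is not stated, and its part in these values was not tested.

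Markers of neighbouring tissues spread widely between arrays of one age. Of 13 cardiac muscle genes 1 fell and 0 rose, and the mean level of the list lay between 0.23 and 0.96 at day 4 and between 0.22 and 2.73 at day 14. Myh6, the atrial myosin heavy chain also made in pulmonary vein walls, did not pass the test (1.05 ± 0.71, adjusted p 0.285), and Tnni1, slow troponin I of fetal muscle, was the one that fell (-3.33 ± 0.89, adjusted p 0.0111), well above background on 2 day 14 arrays. The list of brown and white fat ranged from -2.98 to 1.75 and from -1.63 to 0.71, with 3 of 9 higher, and Adipoq, adiponectin, did not pass the test (0.78 ± 1.31). The thymus list ranged from -3.28 to -2.01 and from -2.58 to -0.76, beside the T cell rises, and Themis, a T cell signalling protein, passed the test (adjusted p 0.00756) with 0 day 4 and 3 day 14 arrays above background. Skeletal muscle genes gave 2 falls in 6, cartilage 2 in 10, red cell precursors 2 in 14 and neural genes 1 in 15. Of all genes 12% fell and 6.75% rose. The part of such tissue in the results above was not tested.

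Levels at the other ages placed the changes in the series. For Fbn2 the mean was 2.52 ± 0.32 (SD) at day 1, 2.13 ± 0.14 at day 7 and -2.35 ± 0.30 at day 42, against 2.48 ± 0.34 at day 4 and -1.12 ± 1.35 at day 14. Inmt went from 2.31 ± 0.18 at day 7 to 8.03 ± 0.60 at day 42, and Chil3 from 2.34 ± 0.68 to 6.86 ± 0.21. Cdk1 stood at 0.47 ± 0.24 at day 7 and -2.16 ± 0.39 at day 42. Per3, by contrast, was higher at day 14 (-2.43 ± 0.44) than the means of day 7 (-3.17 ± 0.22) and day 42 (-3.88 ± 0.56), and Acta2 at day 42 (5.34 ± 0.67) lay between its day 4 and day 14 means. The SD values at day 1, 4 and 42 include the dim arrays.

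**Figure D5:**
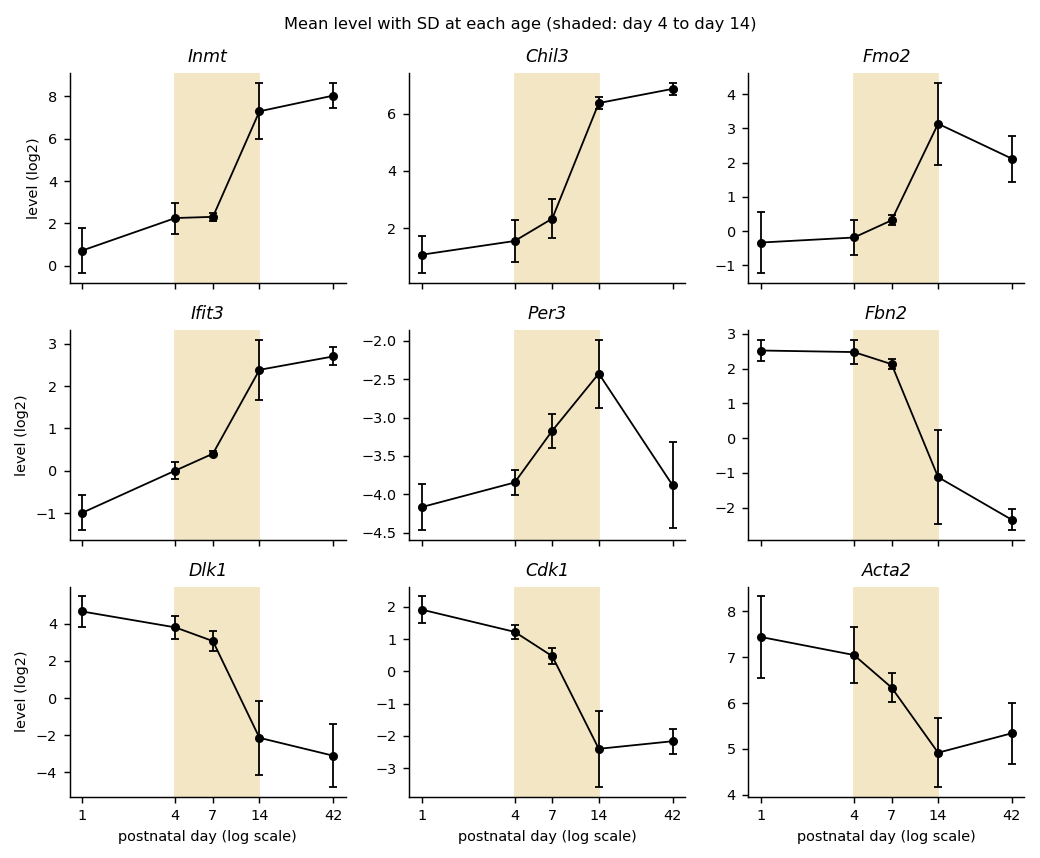
Mean level with SD (y axis, log2 processed signal minus the array's 75th percentile) of 9 genes at postnatal days 1, 4, 7, 14 and 42 (x axis, log scale), 5 arrays per age and 4 at day 42. Inmt, Chil3 and Fmo2 step up between days 7 and 14, and Fbn2, Dlk1 and Cdk1 step down. Day 7 means are printed in the text for Inmt, Chil3, Fbn2, Cdk1 and Per3 only.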

How the data were processed

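The authors scanned the arrays with Agilent Feature Extraction, version 10.7.3.1 per the file headers and 10.7.1.1 per the submitters' processing notes. The deposited intensity values used here are its background-subtracted processed signals. The authors' deposited value table holds log2 values of the same arrays, whose normalization is not given in the sources used here, and served as an alternative. From the intensities, log2 values were taken, each array's 75th percentile over non-control spots was subtracted, spots of a probe were averaged, and a gene was read from its brightest probe named through RefSeq accessions (19710 genes). Genes well above background on at least 4 arrays were tested (15886). limma 3.58.1 in R 4.3.3 fitted 1 mean per age over all 24 arrays, which share 1 estimate of the spread. The fit was also run on simulated data with independent noise and no dim or outlying array. That run does not show how the fit behaves with such arrays. Alternatives were slide or replicate blocks, other scalings and background correction (normexp, offset 50), filters, array weights and left-out arrays. For 1 day 14 sample the source name and the title give different replicate numbers, and the title was followed.

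Genes, members and the 60 gene lists were chosen with earlier results of these data known. Named genes are the 12 largest changes in each direction that passed the test without overlap, the 6 largest bounds, the 5 smallest adjusted p in each direction, and of each list its first 4 members and up to 5 that passed in each direction, with the exceptions stated, and some genes that the rule names are not reported here. No set test was run.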

Additional observations from a re-analysis of the deposited data

Results flagged for a closer look

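In 85 of 374 groups of 5 arrays (187 named genes at both ages), 1 array lay far from the other 4: its gap to the nearest array was over 0.71 of the group's range, which chance gives in about 1 of 20 groups. Of these, 80 were day 14 replicate 5, so the genes share 1 array and are not separate observations.

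Among enzymes and epithelial genes, day 14 replicate 5 was far below its group for Inmt (4.93), Lrat (-2.60), Aldh1a1 (5.33), Hsd11b1 (3.66), Fmo2 (1.0), Cyp2b10 (2.17), Cyp1a1 (-5.45), Gpx3 (2.20), Sod3 (4.32), Hpgd (3.93), Lyz2 (3.48) and Scgb1a1 (7.61), each level being log2 with the array's 75th percentile at 0. It was likewise low for the defence and immune genes Cxcl14 (1.89), Serpina3n (-2.25), Ms4a4d (-4.14), Klra4 (-3.41), Klra8 (-4.22), Ms4a1 (1.18), Pax5 (-5.22), Cd28 (-2.36), Cd209a (-1.75), H2-Ab1 (5.35), Fabp1 (-0.33), Ifit3 (1.11) and Kit (2.52). Matrix, vascular, signalling, clock and stress genes with a low replicate 5 were Mmp3 (-1.34), Col8a1 (-4.33), Pdgfra (2.08), Pparg (0.12), Fst (-2.55), Bmpr2 (-0.32), Chrdl1 (-4.76), Tek (1.30), Vegfa (3.98), Slc6a2 (-0.18), Nr1d1 (-1.40), Dbp (3.05), Per3 (-3.21), Klf9 (1.0), Tsc22d3 (4.55), Hspa1a (-0.79), Tex11 (-4.41) and Prmt8 (-5.15).

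Day 14 replicate 5 was far above its group for the proliferation genes Cdk1 (-0.29), Top2a (0.22), Ccnb2 (2.34), Cdc20 (3.05), Ticrr (-1.56), Uhrf1 (1.26), H1f5 (-0.22) and H2ac4 (-0.72). Of matrix genes it was high for Fbn1 (3.30), Fbn2 (1.28), Fbln5 (5.68), Loxl2 (3.27), Col1a2 (7.51), Col14a1 (3.82), Vcan (1.70), Thbs2 (0.61), Tgfbi (6.55) and Mmp14 (0.96). Signalling genes with a high replicate 5 were Fgf18 (3.75), Etv4 (1.48), Shh (-0.67), Smo (4.32), Gli3 (0.03), Wnt5a (1.81), Rspo2 (-0.79), Tgfb3 (4.25) and Grem1 (-2.38). It was also high for Lrrc15 (0.03), Mest (3.78), Prss35 (-0.77), Shisa3 (-3.48), Phactr3 (-4.67), Trim67 (1.84), Stfa1 (3.1), Stfa3 (0.81), Arntl (0.33) and Nfil3 (1.94). All of these levels lay on the day 4 side of the group.

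The 5 other cases were Cnn1 at 2.98 (lowest of its group, day 14 replicate 4), Gli3 at 0.30 (lowest of its group, day 4 replicate 1), Magel2 at -4.91 (lowest of its group, day 14 replicate 3), Mcpt-ps1 at -5.62 (highest of its group, day 14 replicate 3) and Ptch1 at -2.43 (highest of its group, day 14 replicate 3). The cause of these positions was not tested.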

How the results depend on the processing

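Of the 155 named genes past the test, 155 kept direction and call without the dim arrays and 148 with slide as a block. In each of the 10 fits that left out 1 array 135 kept them. In all of the 25 alternatives in which the gene was tested 110 kept them. The filter on all 10 arrays tested only 152 of the 187 named genes. The count of 2979 genes became 5486 (2508 higher, 2978 lower) without the dim arrays and 4299 (1587 and 2712) with the compared ages alone. It became 9651 (4717 and 4934) with array weights and 5120 (2435 and 2685) with the compared ages alone and no dim array. It became 6693 (3088 and 3605) without the dim arrays and day 14 replicate 5. That setting, the one before it and leaving out day 14 replicates 3 and 5 were chosen after seeing the data. Median scaling gave 558 higher and 3155 lower, 15% higher against 36% of calls with the 75th percentile, and the authors' deposited table gave 1877 higher. With 1 array left out the counts ranged from 1992 to 3345, those higher from 734 to 1271 and those lower from 1213 to 2074.

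Some genes that had not passed the test passed in the other direction. With array weights these were Aqp5 (0.37), Fgf10 (-0.24) and Sftpb (0.23), with quantile normalization Pdgfa (0.26) and Sftpb (0.32), and in the authors' deposited table Pdgfa (0.35), Sftpb (0.42) and Sftpc (0.32). The cause was not tested. Same-numbered replicates correlated at r of -0.10 to 0.05 after removal of group means, 0 of 5 best with their own number, and a replicate block gave 2768 genes. Precision is limited by 5 arrays per age, and by background for the 115 and 24 genes measured at 1 age.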
